A study of Mus musculus with 10 samples.

Results

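The genes described here are the orphan and adhesion G protein-coupled receptors of the mouse: every gene on the array whose symbol is Gpr followed by a number, or starts with Adgr, the root of the adhesion receptor names. They were chosen by symbol alone. Where a gene had several probe sets, the one brightest on average across the 10 arrays stands for it. Of 18194 genes with a probe set, 81 met the rule, 59 of them Gpr and 22 Adgr genes. A receptor was tested when its probe set lay above the median of all probe sets on at least 2 arrays, which 37 of the 81 did. The 37 consist of 27 Gpr and 10 Adgr genes, among 11993 genes that met the same filter.

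Total RNA of 10 cultures of transformed mouse leukemia stem cell (LSC) lines was measured, each culture on an Affymetrix Mouse Genome 430 2.0 array of its own. RH-RAS cells carry DNMT3A with the R882H mutation together with NRAS G12D, were established outside the animal, and are represented by 4 independently derived lines, numbered 1 to 4. Lines 1 and 3 were also grown for 4 days with 1 µM SGC0946, an inhibitor of the histone H3 lysine methyltransferase Dot1l. The other arrays hold 1 line made with the fusion oncoprotein MLL-AF9 and 3 made with another, NUP98-JARID1A. All lines grew in Opti-MEM with 10% serum and stem cell factor, and every group carries a transforming construct. The sources used here do not name the promoters that drive the constructs, nor any vehicle for the untreated cultures. The comparisons ask which receptors changed when Dot1l was inhibited and which differ between RH-RAS lines and the fusion lines.

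G protein-coupled receptors sit in the membrane, bind a ligand outside the cell and switch on heterotrimeric G proteins inside it. These are made of an alpha and a beta-gamma part, are switched off with the help of RGS proteins, and act on enzymes that make or degrade second messengers. Receptors without a settled ligand are called orphans, and many Gpr genes have since been paired with lipids, metabolites or protons. Adhesion receptors add a long extracellular region with a GAIN domain, where most of them cut themselves and leave a tethered peptide that can act as an agonist. Blood cells use members of both kinds to find their place in tissue and to sense inflammation, and several serve as markers of macrophages, granulocytes, stem cells and lymphocytes.

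Promoters are shown for 4 receptors that passed the test under SGC0946, with and without line number in the model, and that have an entry in the RefSeq promoter table. The choice was made after their values were seen. Gpr25 and Adgrg3 fell, and Gpr183 and Gpr155 rose. Each window is the 250 bases before the annotated start, in the 5′ to 3′ direction of the gene, from RefSeq on GRCm38.p6. Gpr25 lies on the minus strand at chr1:136260927-136261176 and Adgrg3 on the plus strand at chr8:95017442-95017691. Gpr183 lies on the minus strand at chr14:121965194-121965443 and Gpr155 on the minus strand at chr2:73386481-73386730. Capitals mark a match, on either strand, to one of 4 motifs of myeloid and progenitor factors. The 4 are an ETS motif GAGGAA, a C/EBP motif TTGCNNAA, the Meis motif TGACAG and the AP-1 motif TGANTCA.
Gpr25: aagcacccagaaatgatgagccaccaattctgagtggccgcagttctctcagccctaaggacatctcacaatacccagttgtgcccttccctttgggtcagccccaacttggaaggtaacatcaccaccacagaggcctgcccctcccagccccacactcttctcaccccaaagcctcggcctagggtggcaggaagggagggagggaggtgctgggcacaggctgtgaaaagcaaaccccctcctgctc
Adgrg3: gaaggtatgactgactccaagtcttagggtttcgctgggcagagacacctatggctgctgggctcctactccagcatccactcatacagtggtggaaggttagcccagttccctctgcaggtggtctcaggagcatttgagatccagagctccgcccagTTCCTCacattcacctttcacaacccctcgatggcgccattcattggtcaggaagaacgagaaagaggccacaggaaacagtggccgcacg
Gpr183: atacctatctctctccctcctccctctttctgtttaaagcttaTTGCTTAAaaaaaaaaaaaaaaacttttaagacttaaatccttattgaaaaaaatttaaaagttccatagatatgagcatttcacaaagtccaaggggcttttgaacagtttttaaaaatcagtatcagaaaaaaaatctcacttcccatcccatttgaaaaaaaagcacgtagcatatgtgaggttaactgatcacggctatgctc
Gpr155: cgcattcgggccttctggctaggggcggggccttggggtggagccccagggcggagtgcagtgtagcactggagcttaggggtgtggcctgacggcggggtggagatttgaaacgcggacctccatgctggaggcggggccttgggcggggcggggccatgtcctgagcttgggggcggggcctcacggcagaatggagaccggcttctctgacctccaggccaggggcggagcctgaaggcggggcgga

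The Adgrg3 window holds 1 ETS match on the opposite strand, starting at position -91 relative to the start. Gpr183 holds 1 C/EBP match, at -207, next to a run of adenines. The windows of Gpr25 and Gpr155 hold no full match to any of the 4 motifs. Shorter parts of the motifs, such as GGAA, were not searched for and do occur in the Gpr25 and Adgrg3 windows. Over all 32851 promoter windows of this length in the table, 23.3% hold the ETS motif GAGGAA, 9.6% the C/EBP motif, 15.9% the Meis motif and 6.7% the AP-1 motif. The 36 windows of 27 of the tested receptors hold them at 25.0%, 5.6%, 16.7% and 2.8%. The 4 windows differ in composition. Gpr155 has 17 CpG pairs and 70.4% G and C, whereas Gpr183 has 2 CpG pairs and 32%, Gpr25 2 and 58.8%, and Adgrg3 7 and 55.2%. The median window of the table has 6 CpG pairs and 52.4% G and C.

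Levels are log2 intensities after robust multi-array averaging (RMA), on which the array medians lay between 5.72 and 5.82. A difference of 1 is a doubling. Low intensities are compressed on this scale, which understates changes into or out of the lowest levels, and the level of one probe set cannot be set against that of another. Fewer cells of a type and less RNA per cell cannot be told apart in these bulk cultures. Of the stem and progenitor markers, 4 of 5 lay above the array median on every untreated RH-RAS array. So did 6 of 7 monocyte and macrophage markers, 5 of 5 dendritic cell markers and 4 of 5 T and NK cell markers. No neutrophil, erythroid, fibroblast or B cell marker measured did. Untreated RH-RAS line 4 stood apart from lines 1 to 3: its mean level of 7 monocyte and macrophage markers, 8.84, was the highest of the 4 (the lowest was 7.25), and its mean of T and NK cell markers, 7.12, was the lowest. For each comparison, the count over all tested receptors is given with and without it.

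All 10 arrays showed 20 receptors above the median, 43 receptors were above it on no array, and Adgre4 was above it on 1 array only. Counted over the 81, 31 receptors were above the median on at least 1 untreated RH-RAS array, 33 on at least 1 treated array, 27 in the MLL-AF9 line and 32 on at least 1 NUP98-JARID1A array. These groups have 4, 2, 1 and 3 arrays, so the counts cannot be set against each other. Their share over all genes was not computed. By role, the 37 comprise 10 of 22 adhesion receptors, 3 of 3 measured proton-sensing receptors, 6 of 7 measured lipid, metabolite and purine-type receptors of leukocytes, and 7 of 9 membrane proteins of intracellular compartments. They further comprise 1 of 2 class C orphans and 10 of 35 other orphans. None of the 3 genes of the Gpr3 group, known for activity without a ligand, was above the median on any array. The range over the 10 arrays was under 1 for 13 of the 37 and at least 4 for 8.

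**Figure D1:**
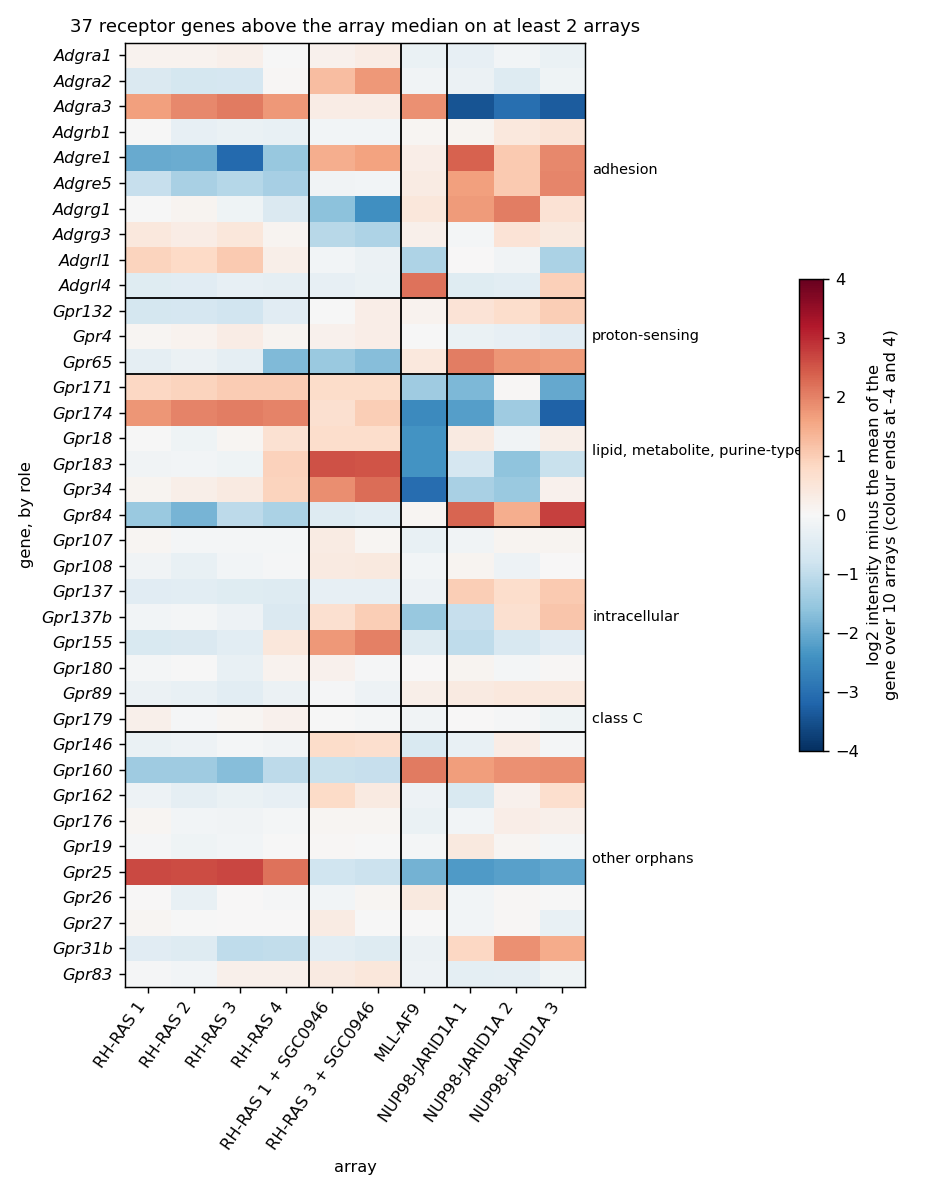
Log2 intensity of the 37 tested receptors on the 10 arrays, as the difference from each gene's own mean, with genes in rows by role and arrays in columns by group (blue lower, red higher). Gpr25, Gpr174 and Adgra3 are red in untreated RH-RAS lines and blue in NUP98-JARID1A lines, and Gpr183, Gpr155 and Adgra2 are red on the 2 treated arrays.

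Under SGC0946, the macrophage receptor Adgre1, the oxysterol receptor Gpr183, the lysosomal protein Gpr155 and the adhesion receptor Adgra2 rose by 2.12 to 4.09 on the log2 scale. The orphan receptor Gpr25 fell by 3.47, and the adhesion receptors Adgrg1, Adgrg3 and Adgra3 fell, with changes of -1.95, -1.61 and -1.55. In all, 12 of the 37 receptors passed the limma threshold of adjusted p 0.05, 8 higher and 4 lower. Of all 11993 genes tested, 1434 (12%) passed, 820 (6.84%) higher and 614 (5.12%) lower. The median change was 0.20 over the 37 receptors and 0.02 over all genes tested. A receptor could pass the filter through the treated arrays alone, as Adgra2 and Gpr155 did, so these counts are descriptions and not support for a change of the family. Each of the 12 moved the same way in line 1 and in line 3, as did 33 of the 37. The share over all genes was not computed, so nothing particular to receptors is read from this.

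Both lines had been measured with and without the inhibitor, and with line number as a block 9 receptors passed, 8 of them among the 12. Gpr65 was gained, and Adgrg1, Gpr108, Gpr132 and Gpr146 were lost. When any 1 of the 4 arrays of lines 1 and 3 was left out, the arm left with 1 array was assumed to vary like the other groups. Then 4 receptors passed when the treated array of line 1 was omitted and 1 when that of line 3 was. Omitting an untreated array left 4 for line 1 and 3 for line 3. Without untreated line 4, 12 passed, 11 of them the same genes. Gpr25 was the only receptor that passed in all 5 of these fits.

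**Figure D2:**
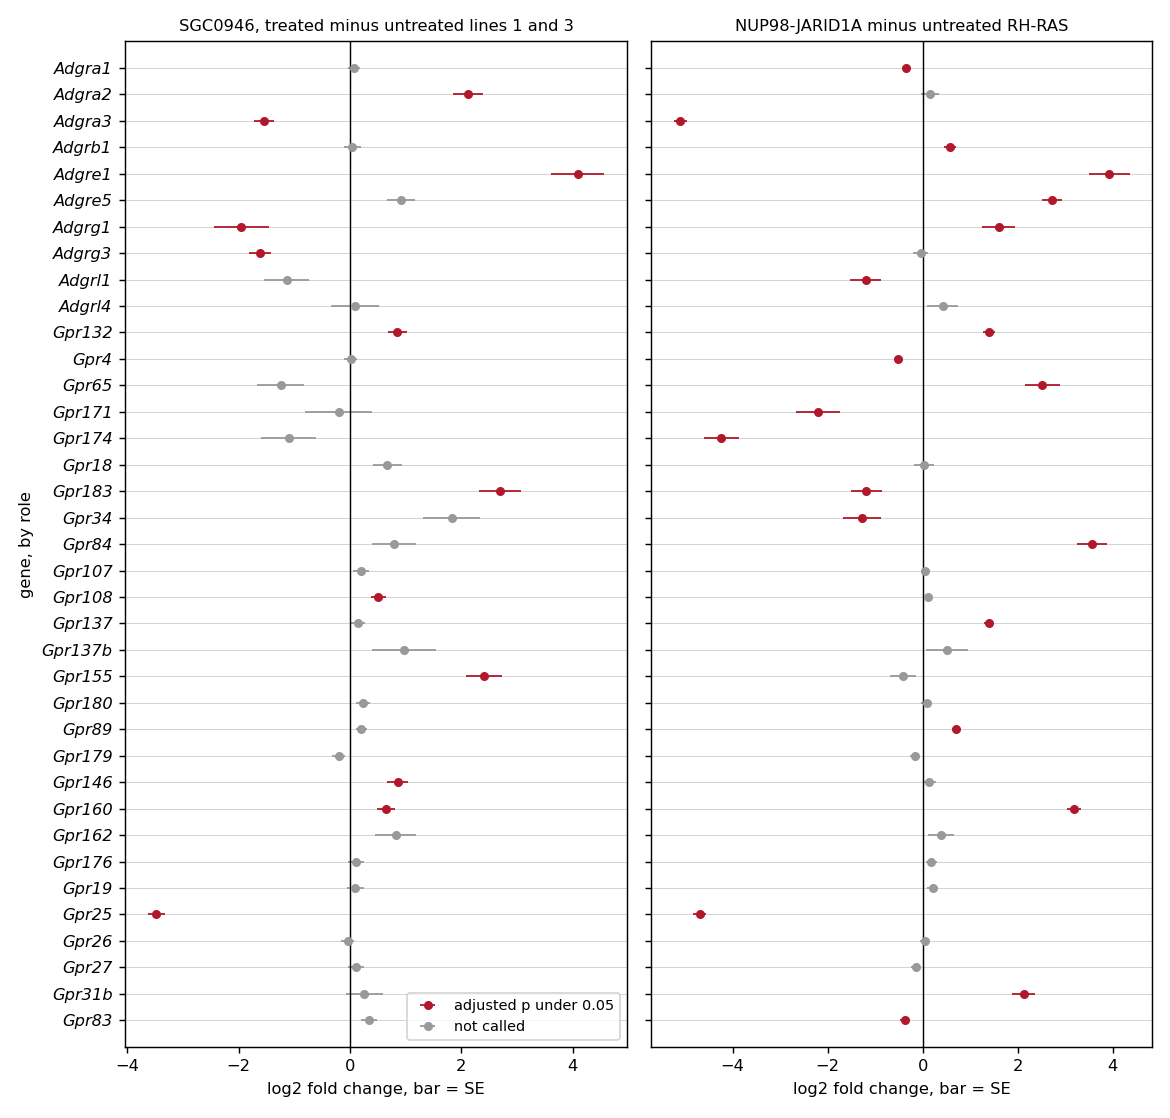
Log2 fold changes of the 37 receptors under SGC0946 (left, treated minus untreated lines 1 and 3) and of NUP98-JARID1A lines against untreated RH-RAS lines (right), with bars for 1 SE and red points for a limma adjusted p under 0.05. Adgre1 is high in both panels and Gpr25 low in both, while Adgrg1 and Gpr183 lie on opposite sides of 0; both panels use untreated RH-RAS arrays.

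NUP98-JARID1A lines had higher Adgre1, Gpr84, Gpr160, Adgre5, Gpr65 and Gpr31b than untreated RH-RAS lines, by 2.12 to 3.93, and lower Adgra3, Gpr25, Gpr174 and Gpr171, with differences of -2.21 to -5.11. Of the 37 receptors, 11 were higher and 10 lower at a limma adjusted p under 0.05, 21 in all. Of all genes tested, 6113 (51%) passed, 3897 (32.5%) higher and 2216 (18.5%) lower, so the share of receptors past the threshold lay near that of all genes. The median difference was 0.12 over the receptors and 0.10 over all genes tested. Gpr31b met the filter through NUP98-JARID1A arrays alone, and Adgra1 and Gpr83 through RH-RAS arrays alone, so these counts too are descriptions. For 20 of the 21 receptors the 3 NUP98-JARID1A values lay wholly above or below the 4 RH-RAS values. Such separation is favoured by the threshold itself, and its share over all genes was not computed, so it adds no support. Of the 21, 17 passed whichever of the 7 arrays was left out. Without untreated line 4, 19 of the 21 passed; Gpr34 and Gpr83 did not.

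The MLL-AF9 line is 1 array and was not tested. It lay at least 2 from the RH-RAS mean and outside the range of the 4 untreated lines for 9 of the 37 receptors, 3 higher and 6 lower. By the same rule 522 of all genes (4.35%) were counted, 314 (2.62%) higher and 208 (1.73%) lower. Gpr160, Adgrl4 and Adgre1 were the 3 higher receptors. Adgrl4 met the filter through the MLL-AF9 array and NUP98-JARID1A line 3 alone. The count rests on 1 array and is a description, so nothing particular to receptors is read from it. Gpr174, Gpr25, Gpr34, Gpr183, Gpr18 and Gpr171 were the 6 lower ones, and 5 of these belong to the lipid, metabolite and purine-type list. The median difference was -0.02 over the receptors and 0.07 over all genes. Without untreated line 4, 10 receptors met the rule. All 3 comparisons use the untreated RH-RAS arrays, so their values are given side by side below and not correlated.

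Among adhesion receptors, 2 rose and 3 fell of 10 tested under SGC0946, and 4 were higher and 3 lower in NUP98-JARID1A lines. Their median change under SGC0946 was 0.05. These and the role counts below stand beside 12% of all genes past the threshold under SGC0946 and 51% in NUP98-JARID1A. Nothing particular to a role is read from them. The most changed was Adgre1, the surface antigen by which mouse macrophages are usually recognised. Adgre1 read 5.24, 5.27, 4.17 and 5.75 in untreated RH-RAS lines 1 to 4, 8.71 and 8.88 in treated lines 1 and 3, 7.55 in the MLL-AF9 line and 9.63, 8.30 and 9.19 in NUP98-JARID1A lines 1 to 3. All RH-RAS cultures without inhibitor were below the array median, and every other array was above it. It rose 17.0-fold under SGC0946 (4.09 ± 0.47, log2 ± SE; limma adjusted p = 0.00474) and was 15.3-fold higher in NUP98-JARID1A lines (3.93 ± 0.43; adjusted p = 0.000321). Without treated line 3 the first of these had an adjusted p of 0.0612 in limma. The MLL-AF9 value was 2.44 above the RH-RAS mean.

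Adgre5, also known as CD97, is found on many leukocytes. It read 7.23, 6.87, 7.02 and 6.85 in untreated RH-RAS lines, 8.04 and 8.04 in treated lines, 8.48 in MLL-AF9 and 9.79, 9.22 and 10.11 in NUP98-JARID1A. The groups did not overlap, with untreated RH-RAS lowest and NUP98-JARID1A highest. The difference of 2.72 ± 0.21 in NUP98-JARID1A passed (6.57-fold; limma adjusted p = 8.14e-05). Under SGC0946 the change of 0.92 ± 0.25 did not (adjusted p = 0.0589), though it did in a fit of the RH-RAS arrays alone (adjusted p = 0.00248).

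Adgra2, known as GPR124, is a partner of Wnt7 signalling in brain vessels. It read 4.40, 4.30, 4.33 and 5.04 untreated, 6.23 and 6.73 treated, 4.85 in MLL-AF9 and 4.74, 4.46 and 4.81 in NUP98-JARID1A. Only the treated arrays were above the array median, and line 4 was the highest of the others. The gene thus met the filter through the group where it was high, which limits what its p-value can show. Adgra2 rose by 2.12 ± 0.26 (4.34-fold; limma adjusted p = 0.00569). Its adjusted p was 0.0638 without treated line 3, and omitting untreated line 1 or 3 gave 0.0513 or 0.0588. The difference in NUP98-JARID1A was 0.15 ± 0.20 (adjusted p = 0.541).

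Its relative Adgra3, known as GPR125, went the other way. Adgra3 read 8.59, 8.88, 9.01 and 8.68 untreated, 7.26 and 7.24 treated, 8.77 in MLL-AF9 and 3.51, 3.92 and 3.62 in NUP98-JARID1A. The MLL-AF9 value stood within the untreated RH-RAS range, the treated values below it, and the NUP98-JARID1A values near the bottom of the scale. The difference in NUP98-JARID1A was -5.11 ± 0.14, 34.4-fold lower (limma adjusted p = 2.59e-06), the greatest in size among the probe sets used. Under SGC0946 it fell by 1.55 (SE 0.18; adjusted p = 0.00502), with an adjusted p of 0.0503 without treated line 1 and 0.0612 without treated line 3. The other 2 probe sets of Adgra3 were above the median on no array and differed by 0.08 and 0.19 under SGC0946 and by -0.01 and 0.33 in NUP98-JARID1A. The mean of all its probe sets gave -0.43 (adjusted p = 0.038) and -1.60 (adjusted p = 1.49e-05) for these comparisons.

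Adgrg1, known as GPR56, marks hematopoietic stem cells and cytotoxic lymphocytes, and Adgrg3, known as GPR97, is a granulocyte receptor. Adgrg1 read 8.34, 8.47, 8.18 and 7.77 untreated, 6.73 and 5.90 treated, 8.79 in MLL-AF9 and 10.06, 10.39 and 8.92 in NUP98-JARID1A. Adgrg3 read 11.82, 11.70, 11.86 and 11.51 untreated, 10.30 and 10.15 treated, 11.60 in MLL-AF9 and 11.32, 11.93 and 11.79 in NUP98-JARID1A. Both genes were lowest on the treated arrays, and only Adgrg1 was set apart in NUP98-JARID1A. Adgrg1 fell by 1.95 under SGC0946 (SE 0.50; limma adjusted p = 0.0459), which did not hold with the block (adjusted p = 0.0929) or in any fit with an array left out (0.055 to 0.269). In NUP98-JARID1A it was higher by 1.60 ± 0.35 (adjusted p = 0.00683). Its second probe set gave -2.17 and 1.68 for these comparisons. Adgrg3 fell by 1.61 (SE 0.20; adjusted p = 0.00532; 0.0663 without treated line 3 and 0.0573 without untreated line 3) and differed by -0.04 ± 0.16 in NUP98-JARID1A (adjusted p = 0.856).

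Adgrl1, latrophilin 1, is best known from synapses. It read 9.39, 9.29, 9.53 and 8.73 untreated, 8.38 and 8.27 treated, 7.27 in MLL-AF9 and 8.50, 8.37 and 7.24 in NUP98-JARID1A. Every other array was below the untreated RH-RAS range, with MLL-AF9 and NUP98-JARID1A line 3 lowest. The difference of -1.20 ± 0.33 in NUP98-JARID1A passed (limma adjusted p = 0.0187; 0.0522 without untreated line 3), and the change of -1.14 ± 0.40 under SGC0946 did not (adjusted p = 0.116; 0.00874 on the RH-RAS arrays alone). A second probe set of Adgrl1, also above the median on all 10 arrays, gave smaller differences. They were -0.63 in NUP98-JARID1A, -0.52 under SGC0946 and -1.18 in MLL-AF9, where the one used gave -1.97. Adgrl4, or ELTD1, is an endothelial receptor. It read 4.50, 4.54, 4.65 and 4.63 untreated, 4.64 and 4.70 treated, 7.14 in MLL-AF9 and 4.50, 4.55 and 5.95 in NUP98-JARID1A. The MLL-AF9 line and NUP98-JARID1A line 3 were the only arrays above the median. MLL-AF9 was 2.56 above the RH-RAS mean, and 5.05 by the second probe set, while the NUP98-JARID1A difference was 0.42 ± 0.33 (adjusted p = 0.327).

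The other tested adhesion receptors moved little. Adgrb1, or BAI1, a receptor for apoptotic cells, ranged from 6.26 to 7.11 and was 0.58 ± 0.13 higher in NUP98-JARID1A (limma adjusted p = 0.00767). With line number as a block the limma adjusted p was 0.0616, but RH-RAS and NUP98-JARID1A lines share only a number. Adgra1 ranged from 5.39 to 6.01 and was lower there (-0.35 ± 0.09, limma adjusted p = 0.0141), but met the filter through RH-RAS arrays alone.

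**Figure D3:**
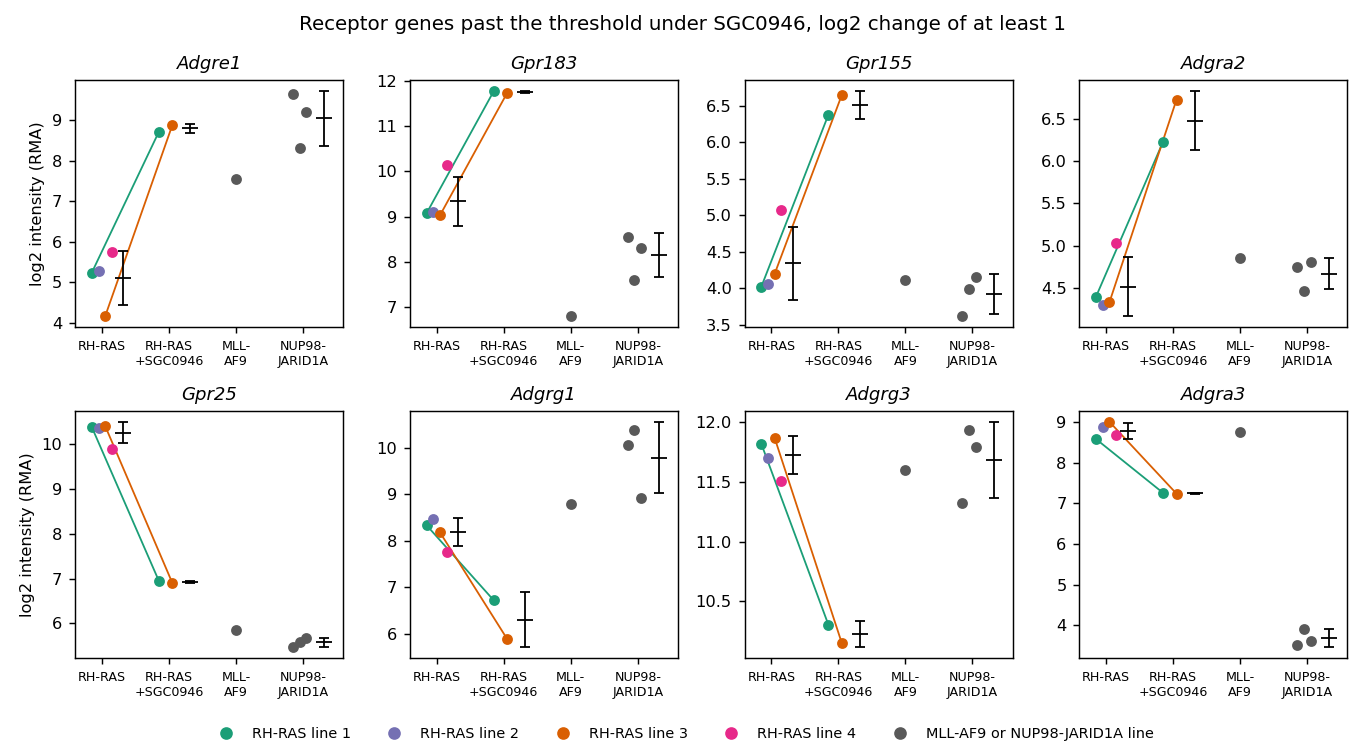
Log2 intensity on each array of the 8 receptors that passed the threshold under SGC0946 with a change of at least 1, with lines joining the same RH-RAS line before and after treatment and bars for the group mean and SD. In each panel both joined lines run the same way; treated Gpr25 lies near 6.9 and untreated Gpr25 between 9.91 and 10.41.

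Proton-sensing receptors respond to acid outside the cell, as in inflamed tissue. All 3 measured members passed the threshold in NUP98-JARID1A lines, 2 higher and 1 lower, where 51% of all genes tested passed. Under SGC0946 1 rose, where 12% of all genes passed. Gpr65 read 6.39, 6.51, 6.39 and 4.98 in untreated RH-RAS lines, 5.25 and 5.04 treated, 7.16 in MLL-AF9 and 8.79, 8.52 and 8.45 in NUP98-JARID1A. Line 4 sat with the treated arrays, below lines 1 to 3, and NUP98-JARID1A was highest. The difference of 2.52 ± 0.37 in NUP98-JARID1A passed (5.73-fold; limma adjusted p = 0.00115). The change of -1.25 ± 0.42 under SGC0946 did not (adjusted p = 0.105), but it did with line number as a block (adjusted p = 0.0177) and without line 4 (adjusted p = 0.00476).

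Gpr132 is a receptor of macrophages and lymphocytes. It read 6.30, 6.34, 6.26 and 6.55 untreated, 6.98 and 7.27 treated, 7.15 in MLL-AF9 and 7.55, 7.71 and 7.99 in NUP98-JARID1A. No array of another group reached into the untreated RH-RAS range. Gpr132 rose by 0.85 ± 0.17 under SGC0946 (limma adjusted p = 0.0203; 0.0587 with the block) and was 1.39 ± 0.13 higher in NUP98-JARID1A (adjusted p = 0.000155). Without 1 array of lines 1 or 3 the first adjusted p lay between 0.0787 and 0.155. Gpr4 ranged from 6.71 to 7.48 and differed by -0.51 ± 0.09 in NUP98-JARID1A (adjusted p = 0.00247) and by 0.02 ± 0.11 under SGC0946 (adjusted p = 0.958).

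Receptors of lipids, metabolites and purine type are used by leukocytes to follow chemical cues. Of 6 tested, 1 rose under SGC0946, and 1 was higher and 4 lower in NUP98-JARID1A. Gpr183, or EBI2, guides lymphocytes and myeloid cells along oxysterols. It read 9.07, 9.11, 9.03 and 10.14 untreated, 11.76 and 11.72 treated, 6.81 in MLL-AF9 and 8.54, 7.61 and 8.30 in NUP98-JARID1A. The order of groups was treated, untreated, NUP98-JARID1A and MLL-AF9, with no overlap, and line 4 was the untreated line nearest the treated ones. Gpr183 rose by 2.69 ± 0.38 under SGC0946 (6.46-fold; limma adjusted p = 0.00715) and differed by -1.19 ± 0.33 in NUP98-JARID1A (adjusted p = 0.0197; 0.0589 without NUP98-JARID1A line 2). Without 1 of the 4 arrays of lines 1 and 3, the adjusted p of the rise was 0.058 to 0.0712. A second probe set gave 2.46 and -0.81.

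Gpr34 and Gpr174 are receptors for lysophosphatidylserine. Gpr34 read 6.38, 6.52, 6.64 and 7.16 untreated, 8.15 and 8.52 treated, 3.22 in MLL-AF9 and 4.97, 4.79 and 6.44 in NUP98-JARID1A. Treated arrays were highest and MLL-AF9 lowest, and NUP98-JARID1A line 3 lay within the untreated range. The change of 1.82 ± 0.52 under SGC0946 did not pass (limma adjusted p = 0.064), though it did on the RH-RAS arrays alone (adjusted p = 0.00422). The difference of -1.27 ± 0.40 in NUP98-JARID1A passed (adjusted p = 0.0315). It did not pass with the block (adjusted p = 0.0551), which here joins lines that share only a number. Nor did it pass without untreated line 2, 3 or 4 or NUP98-JARID1A line 1 or 2 (adjusted p 0.0581 to 0.0957).

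Gpr174 is otherwise found in lymphocytes. It read 9.10, 9.33, 9.40 and 9.31 untreated, 7.99 and 8.31 treated, 4.79 in MLL-AF9 and 5.12, 5.92 and 4.10 in NUP98-JARID1A. Both fusion groups were near or below the array median, and all RH-RAS arrays above it. The difference in NUP98-JARID1A was -4.24 ± 0.37, 18.9-fold lower (limma adjusted p = 0.000138), and -2.27 by a second probe set. The change of -1.10 ± 0.49 under SGC0946 did not pass (adjusted p = 0.21), but did on the RH-RAS arrays alone (adjusted p = 0.00494). MLL-AF9 stood at -4.49 from the RH-RAS mean.

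Gpr171 is known from T cells. It read 11.63, 11.70, 11.83 and 11.81 untreated, 11.54 and 11.53 treated, 9.40 in MLL-AF9 and 8.99, 10.85 and 8.76 in NUP98-JARID1A. RH-RAS lines stood together with and without inhibitor, above the other 4 arrays, and NUP98-JARID1A line 2 was nearest to them. The difference in NUP98-JARID1A was -2.21 ± 0.46 (4.63-fold lower; limma adjusted p = 0.00583) and the change under SGC0946 -0.20 ± 0.60 (adjusted p = 0.889). Gpr18, a receptor proposed for lipid mediators, read 7.91, 7.77, 8.03 and 8.55 untreated, 8.63 and 8.65 treated, 5.54 in MLL-AF9 and 8.31, 7.80 and 8.19 in NUP98-JARID1A. Only MLL-AF9 stood clear, at -2.52 from the RH-RAS mean. The change of 0.67 ± 0.26 under SGC0946 did not pass (adjusted p = 0.147).

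Gpr84 binds medium-chain fatty acids and is induced in inflamed myeloid cells. It read 5.82, 5.46, 6.28 and 6.05 untreated, 6.81 and 6.88 treated, 7.37 in MLL-AF9 and 9.64, 8.75 and 10.03 in NUP98-JARID1A. The 4 groups stood in that order, from low to high, without overlap. NUP98-JARID1A was 11.9-fold higher than untreated RH-RAS (3.57 ± 0.32; limma adjusted p = 0.00014), and the change of 0.79 ± 0.40 under SGC0946 did not pass (adjusted p = 0.262). Gpr35 was the measured gene of this list that was above the median on no array.

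**Figure D4:**
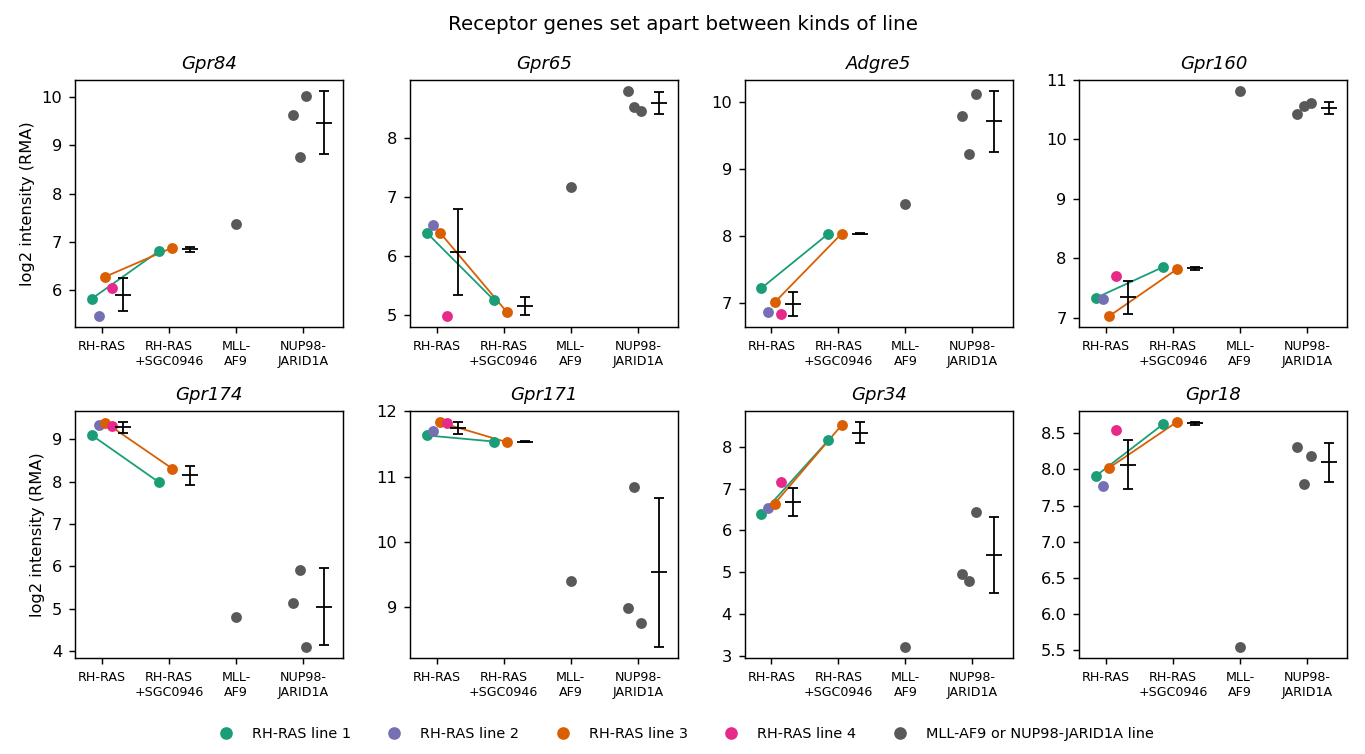
Log2 intensity on each array of 8 receptors that differ between kinds of line, drawn as in the plot of receptors under SGC0946. Gpr84, Gpr65 and Adgre5 are highest in NUP98-JARID1A lines, Gpr174 and Gpr171 highest in RH-RAS lines, and Gpr34 and Gpr18 lowest in the MLL-AF9 line at 3.22 and 5.54.

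Several Gpr genes encode membrane proteins of the Golgi apparatus or lysosome and not surface receptors. Of 7 tested, 2 rose under SGC0946 and 2 were higher in NUP98-JARID1A. Gpr155 is a lysosomal cholesterol sensor. It read 4.02, 4.06, 4.20 and 5.07 untreated, 6.37 and 6.64 treated, 4.11 in MLL-AF9 and 3.62, 3.99 and 4.16 in NUP98-JARID1A. The treated arrays alone were above the array median, and line 4 was next. The filter was thus met through the group where the gene was high, which limits what its p-value can show. Gpr155 rose by 2.40 ± 0.32 (5.28-fold; limma adjusted p = 0.00633), with an adjusted p of 0.0542 to 0.0712 without 1 of the 4 arrays of lines 1 and 3. The NUP98-JARID1A difference was -0.41 ± 0.27 (adjusted p = 0.242).

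Gpr137 and Gpr137b are lysosomal proteins. Gpr137 read 7.94, 7.98, 7.93 and 7.91 untreated, 8.08 and 8.09 treated, 8.20 in MLL-AF9 and 9.39, 9.12 and 9.47 in NUP98-JARID1A. The NUP98-JARID1A lines stood apart from an otherwise narrow range, by 1.39 ± 0.10 (2.61-fold; limma adjusted p = 5.74e-05). Gpr137b, whose other probe sets are in part shared with a pseudogene, read 7.04, 7.09, 6.96 and 6.59 untreated, 7.80 and 8.14 treated, 5.63 in MLL-AF9 and 6.23, 7.80 and 8.26 in NUP98-JARID1A. Its NUP98-JARID1A lines fell on both sides of the RH-RAS range. Neither its change under SGC0946 (0.97 ± 0.58; adjusted p = 0.348) nor its NUP98-JARID1A difference (0.51 ± 0.44; adjusted p = 0.369) passed. On the RH-RAS arrays alone the first did (adjusted p = 0.0156). Without NUP98-JARID1A line 1 the latter was 1.11 (adjusted p = 0.00317).

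Changes of the remaining intracellular proteins were small. Gpr108, a Golgi protein, ranged from 9.48 to 10.18 and rose by 0.51 ± 0.13 under SGC0946 (limma adjusted p = 0.0447; 0.0884 with the block). Without 1 array of lines 1 or 3 its adjusted p was 0.173 to 0.234. Gpr89, a Golgi pH regulator, ranged from 8.42 to 9.25 and was 0.69 ± 0.08 higher in NUP98-JARID1A (adjusted p = 0.000346). Gpr107 and Gpr180 passed in neither comparison.

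Among other orphans, 2 rose and 1 fell of 10 tested under SGC0946, and 2 were higher and 2 lower in NUP98-JARID1A. Gpr25, an orphan receptor of lymphocytes, separated untreated RH-RAS lines from every other array. It read 10.39, 10.37, 10.41 and 9.91 untreated, 6.95 and 6.90 treated, 5.86 in MLL-AF9 and 5.47, 5.58 and 5.67 in NUP98-JARID1A. The treated arrays lay between the untreated lines and the fusion lines. Gpr25 fell alike in line 1 and line 3, 11.1-fold on average (-3.47 ± 0.15; limma adjusted p = 0.000475). The difference in NUP98-JARID1A was -4.69 ± 0.14, 25.8-fold lower (adjusted p = 3.07e-06), and MLL-AF9 stood at -4.41. Its change under SGC0946 stayed within -3.45 and -3.49 whichever array was left out.

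Gpr160 is an orphan proposed as a peptide receptor. It read 7.33, 7.31, 7.03 and 7.71 untreated, 7.85 and 7.81 treated, 10.82 in MLL-AF9 and 10.42, 10.56 and 10.61 in NUP98-JARID1A. The 4 arrays of the fusion lines stood together well above all RH-RAS arrays. NUP98-JARID1A was 9.1-fold higher (3.19 ± 0.15; limma adjusted p = 1.42e-05) and MLL-AF9 11.1-fold higher. The rise of 0.65 ± 0.16 under SGC0946 (adjusted p = 0.0423) had an adjusted p of 0.0804 when all 4 untreated lines served as control and of 0.0949 to 0.224 without 1 array of lines 1 or 3.

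Gpr31b, a receptor proposed for a hydroxy fatty acid, read 4.54, 4.48, 4.00 and 4.01 untreated, 4.56 and 4.49 treated, 4.75 in MLL-AF9 and 5.84, 6.81 and 6.49 in NUP98-JARID1A. Only NUP98-JARID1A lines were above the array median, and the gene met the filter through them. They were higher by 2.12 ± 0.25 (4.36-fold; limma adjusted p = 0.000457). Gpr146, a liver receptor linked to cholesterol, ranged from 7.34 to 8.67 and rose by 0.86 ± 0.18 under SGC0946 (adjusted p = 0.0262; 0.084 with the block). Its other probe sets gave 0.31, 0.14 and 0.19. The mean of all its probe sets did not pass (adjusted p = 0.249). Without 1 array of lines 1 or 3 its adjusted p was 0.106 to 0.157. In NUP98-JARID1A, Gpr146 differed by 0.14 ± 0.14 (adjusted p = 0.439), its other probe sets by -0.75, -0.82 and -0.80, and the mean of all by -0.56, which passed (adjusted p = 0.0164). Gpr83, known from regulatory T cells, ranged from 5.40 to 6.25 and met the filter through RH-RAS arrays alone. It differed by -0.37 ± 0.11 in NUP98-JARID1A (limma adjusted p = 0.0256). The adjusted p was 0.0504 with the block, which here joins lines that share only a number, and up to 0.0682 with an array left out.

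Some receptor genes are neighbours in RefSeq. Adgrg1 and Adgrg3 are adjacent and both fell under SGC0946, yet only Adgrg1 passed in NUP98-JARID1A. Gpr108 and Adgre1 have only Vav1 between them, and both rose under SGC0946, by 0.51 and 4.09. Gpr183 and Gpr18 are adjacent, and their changes were 2.69 and 0.67, of which the first passed. Adgre5 and Adgrl1 are adjacent as well, and in NUP98-JARID1A the first was higher by 2.72 while the second differed by -1.20.

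Genes that carry the receptors' signal moved in part. Under SGC0946, 3 of 10 tested G protein alpha subunits rose: Gna15 by 1.51, Gnai2 by 0.68 and Gna12 by 0.57. Of 11 beta and gamma subunits, Gng2, Gnb5 and Gng10 rose by 0.84, 0.64 and 0.48, and Gnb4 fell (-0.97). Of 12 RGS proteins, Rgs10 rose by 2.09, whereas Rgs11, Rgs18 and Rgs12 fell, with changes of -1.32, -1.03 and -0.73. The receptor kinase Grk3 rose by 1.08, alone of 4 kinases and arrestins, and the phospholipase Plcb4 fell by 1.72, alone of 14 second messenger enzymes. With the block, Gna15, Gna12, Gng2, Gnb5, Gng10, Rgs12 and Plcb4 did not pass (adjusted p in limma 0.0529 to 0.095).

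These counts stand beside 12% of all genes under SGC0946 and, for the next ones, 32.5% higher and 18.5% lower in NUP98-JARID1A, and nothing particular to the lists is read from them. In NUP98-JARID1A lines 4 of the alpha subunits were higher and none lower, led by Gna15 at 2.20 and Gna12 at 0.91. Of the beta and gamma subunits 2 were higher and 3 lower, with Gnb4 at -1.42 and Gnb5 at 0.73. RGS proteins were higher for 4 and lower for 2 of 12. Rgs8 stood at 2.74 and Rgs10 at 1.70, and Rgs18 and Rgs1 at -2.30 and -2.02. Arrestin Arrb2 was 0.85 higher. Of the second messenger enzymes 5 were higher and 3 lower, among them the cAMP phosphodiesterases Pde4d at 1.45 and Pde4a at 1.03 and the cyclase Adcy9 at 1.04.

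Markers of several cell types moved along with the receptors. Under SGC0946, 7 of 7 measured monocyte and macrophage markers rose, and the mean of the list was 7.25 to 8.84 on untreated RH-RAS arrays and 11.24 and 11.36 on treated ones. It was 8.30 in MLL-AF9 and 9.35 to 10.44 in NUP98-JARID1A. In NUP98-JARID1A 4 of the 7 markers were higher, Fcgr1 was lower (-1.16), and Cd14 and Mrc1 did not pass. Of 5 T and NK cell markers, 2 (Cd3g and Gzma) fell under SGC0946, and the list mean was 7.12 to 8.31 untreated and 5.90 and 5.92 treated. The progenitor genes Kit, Cd34 and Meis1 fell, 3 of 4 tested. The other, Cd48, went the opposite way by 1.32 and did not pass (limma adjusted p = 0.184). All 7 neutrophil markers were higher in NUP98-JARID1A, where the list mean was 9.88 to 12.97, against 5.03 to 5.19 in untreated RH-RAS and 11.48 in MLL-AF9. The same Cd3g and Gzma were lower in NUP98-JARID1A, at -3.67 and -5.26, as were 3 of 5 dendritic cell markers, whose list mean was 8.86 to 9.31 in untreated RH-RAS and 7.77 to 8.44 there. Eosinophil markers had a list mean of 8.62 in MLL-AF9 and of 4.77 to 4.95 in untreated RH-RAS, and mast cell and basophil markers of 7.81 and 5.45 to 5.90. The part of these markers in the differences of macrophage, granulocyte and lymphocyte receptors such as Adgre1, Gpr84, Gpr174 and Gpr25 was not tested.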

How the data were processed

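The authors deposited a log2 intensity for each probe set, computed with RMA per the submitters' processing notes; the sources used here name no version. No further normalisation was applied. Probe sets were named through the array's annotation, and those with several symbols were left out. A gene's brightest probe set on average stood for it, and was tested where at least 2 of 10 arrays had it above their median. Models were fitted with lmFit and eBayes of limma 3.58.1 (R 4.3.3), with Benjamini-Hochberg adjustment over 11993 genes and a threshold of 0.05, and were tested on simulated data. SGC0946 was treated minus untreated lines 1 and 3 in a fit of all 10 arrays, where the other arrays entered only the spread. NUP98-JARID1A was compared with untreated RH-RAS (4 lines) in the 8 arrays without inhibitor.

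Line number pairs the treated and untreated arrays, since both come from the same cell line; the difference between lines 1 and 3 correlated between treated and untreated arrays (r = 0.292 over genes, which are not independent). RH-RAS lines are labelled as independently derived; no such label exists for the NUP98-JARID1A lines, whose p-values then reflect only how these samples vary, which may be technical. Precision is limited by the number of arrays.

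Values on every array are given for tested receptors that passed in either fit with a change of at least 1, met the MLL-AF9 rule or had a range of at least 2. The receptors, role lists, pathway lists and markers were chosen with earlier results of these data known. Promoters are from RefSeq, GRCm38.p6; no genome build is named for the arrays. Alternatives covered the filter, probe set, scaling, prior, control arrays, line block and each array left out.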

Additional observations from a re-analysis of the deposited data

Results flagged for a closer look

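Untreated RH-RAS line 4 lay apart from lines 1 to 3 for 5 of the 22 receptors given on every array, by Dixon's critical value. Chance alone passes that value in about 1 of 20 groups, but genes are not independent. The 22 were chosen for a large change or a wide range, and the share over all genes was not computed. Nothing particular to receptors is thus read from the count. Line 4 read 5.04 for Adgra2, where the other lines lay between 4.30 and 4.40. For Gpr155 it read 5.07 against 4.02 to 4.20, and for Gpr183 10.14 against 9.03 to 9.11. It was lower for Gpr25, at 9.91 against 10.37 to 10.41, and for Gpr65, at 4.98 against 6.39 to 6.51. In all 5 genes line 4 differed from lines 1 to 3 in the direction in which the treated arrays of lines 1 and 3 differed from their untreated ones. Line 4 had the highest mean of the monocyte and macrophage markers among untreated lines, 8.84. Whether this accounts for its receptor levels was not tested.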

How the results depend on the processing

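The number of receptors past the threshold under SGC0946 was 12, and 9 with line number as a replicate block (5 higher and 4 lower). It lay between 1 and 12 when treated line 1 or 3 or untreated line 1, 3 or 4 was left out. Other settings gave 10 to 18, the most on the RH-RAS arrays alone. Over all genes tested the count was 1434, against 844 with the replicate block, 2745 on the RH-RAS arrays alone and 28 to 1482 with 1 of those 5 left out. In NUP98-JARID1A the count was 21, 18 with the replicate block and 18 to 22 with 1 of its 7 arrays left out. RH-RAS and NUP98-JARID1A lines share only a number: correlations of same-numbered deviations were -0.054, -0.019 and 0.070. With a limit of 1 in place of 2, 14 receptors were past the MLL-AF9 rule, and the share over all genes at that limit was not computed. With the mean of all probe sets, Gpr146 in NUP98-JARID1A turned from 0.14 to -0.56 and passed (limma adjusted p = 0.0164). Among receptors given on every array, the values that changed direction had not passed. Under SGC0946, Gpr31b was 0.26 and ranged from -0.0136 to 0.5305 with an array left out. In NUP98-JARID1A, Adgrg3 was 0.0038 with array medians subtracted and ranged from -0.16 to 0.14 with an array left out, Gpr18 from -0.073 to 0.1938 and Adgrl4 from -0.053 to 0.6703. The cause was not tested.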

Other observations

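Of the 44 receptors that did not pass the filter, a fit with no filter put 2 past the threshold under SGC0946 in limma, Adgrd1 at -0.80 (adjusted p = 0.0293) and Gpr35 at 0.85 (adjusted p = 0.0446). In NUP98-JARID1A it added 7: Adgre4 at 1.52, Gpr161 at 0.52, and Adgrg6, Adgrl2, Adgrv1, Gpr22 and Gpr63 between -0.27 and -0.39. In the same fit 11 of all 81 receptors passed under SGC0946 and 28 in NUP98-JARID1A. Of all 18194 genes, 1272 and 6694 did. The share among all genes that did not pass the filter was not computed, so nothing particular to receptors is read from these counts. The added receptors lay below the array median on every array, except for Adgre4 in NUP98-JARID1A line 3. Adgre4, a macrophage relative of Adgre1, read 3.80, 3.72, 3.61 and 3.77 in untreated RH-RAS lines, 4.78 and 4.83 treated, 3.82 in MLL-AF9 and 4.93, 4.18 and 6.61 in NUP98-JARID1A. It was thus higher on the treated and NUP98-JARID1A arrays, at levels where RMA compresses differences. Probe sets of Gpr107, a Golgi protein, gave unlike differences in NUP98-JARID1A: 0.06 for the one used, and 0.62 and -1.45 for others above the median on 10 and 6 arrays.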
